A study of Drosophila melanogaster with 36 samples.

Results

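The genes described here are the translation initiation factors of Drosophila melanogaster, taken as every row of the count tables whose FlyBase symbol begins with eIF, which gave 44 of 17611 genes. The members were chosen by name and not by any measured value. They lie on chromosomes X (7 genes), 2L (3), 2R (9), 3L (11), 3R (13) and 4 (1) of the Release 6 assembly. A gene with another symbol is not a member, so CG7483, whose synonym is eIF4AIII, and eEF5, the factor once called eIF5A, were left out.

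The study compared RNA of fly heads between uninjured animals and animals whose antennae and maxillary palps had been removed, which cuts the axons of the olfactory sensory neurons, and collected the latter 7 days after ablation (7 dpa). Whole-head RNA was sequenced as input. RNA that came off anti-GFP beads was sequenced as pulldown, a procedure called translating ribosome affinity purification (TRAP) because a GFP-tagged ribosomal protein carries translated mRNAs with it. There were 36 libraries in 12 groups of 3, and 300 adult animals were pooled per genotype and condition.

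All 3 genotypes were in a w background and carried a single copy of orco-Gal4, a driver active in olfactory sensory neurons that express the odorant co-receptor. Background flies had the driver alone, so their pulldowns held no tagged ribosome. Wild type flies also carried 5xUAS-GFP::RpL10Ab, which supplies the tagged ribosomal protein. Flies labelled dnmnatOE carried that transgene and 5xUAS-dnmnat, which encodes an NAD synthetic enzyme that delays the breakdown of severed axons. The transgenes act only where the driver acts, whereas every input and the unspecific share of every pulldown come from the whole head. The labels give no age, and the sources used here do not state whether uninjured animals were as old at collection as injured ones, so injury and elapsed time cannot be told apart.

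Translation initiation factors bring the initiator tRNA, the small ribosomal subunit and an mRNA together and then let the large subunit join. The eIF2 complex delivers the initiator tRNA and is recharged with GTP by eIF2B, a step that stress kinases block. The eIF3 complex is a many-subunit scaffold on the small subunit, and the eIF4F complex, made of the cap-binding eIF4E, the scaffold eIF4G and the helicase eIF4A, recruits capped mRNAs. In neurons this machinery works in cell bodies and also in axons and synapses.

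Inputs held 6628633 to 22329307 counts on genes and pulldowns 644358 to 2057294, so pulldown values rest on fewer reads. Reads that the authors' counting could assign to no single gene were 1.92% to 3.21% of inputs and 48.5% to 60.3% of pulldowns. Each group's 3 libraries are technical replicates by the labels, while the study's methods state in general that experiments had biological replicates. Which holds here cannot be told from these sources, so that p-values and SDs measure only the spread between these libraries, which may be technical. The overexpressed gene itself did not separate the genotypes. Nmnat was at a mean of 26.2 CPM (counts-per-million of the adjusted library size) in background, 23.6 in wild type and 26.3 in dnmnatOE inputs without injury, and at 26.1, 28.5 and 14.5 CPM in the pulldowns. The level of that gene does not back the genotype label, whether reads of the transgene count toward it is not given in the sources used here, and these libraries are called the libraries labelled dnmnatOE.

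The labelled cell type, olfactory sensory neurons, was checked with 9 marker genes. Their summed level in pulldowns without injury was 4.40 to 13.9 CPM in background, 17.7 to 65.4 in wild type and 14.3 to 31.2 in libraries labelled dnmnatOE, and 5 of the 9 were at 0 in each of these groups. At 7 dpa the sum was 2.03 to 20.9 CPM over all pulldowns. Photoreceptor markers summed to 4422 to 14526 CPM over all pulldowns. Other cell types moved between input groups. The 5 fat body markers, which include yolk protein genes, summed to a mean of 62568 CPM in uninjured and 257131 CPM in 7 dpa inputs labelled dnmnatOE, and 4 neuronal markers to 1052 and 289 CPM.

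The level of the initiation factors ranged widely between genes. Levels between genes are given as CPM per kilobase of exon, with exon lengths from the Ensembl annotation. In inputs eIF4A, the helicase that unwinds the leader of capped mRNAs, was highest at 1122, and its 6 group means lay between 1039 and 1205. The eIF3 subunits eIF3m (388), eIF3g1 (315) and eIF3f1 (297) and the alternative initiator tRNA factor eIF2A (273) followed. The group means of these 4 overlapped, with eIF3m at 298 to 514 and eIF2A at 225 to 333, so their order is not fixed beyond the spread between groups. The lowest members with reads in every input library were eIF4E6 at 1.65 and eIF4B at 1.81 CPM per kilobase.

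A group of 9 members was nearly silent in these heads. It comprised the eIF3 paralogs eIF3d2, eIF3f2 and eIF3g2, the cap-binding paralogs eIF4E3, eIF4E4, eIF4E5 and eIF4E7, the helicase helper eIF4H2, and eIF5, which activates the GTPase of eIF2. No one of them exceeded 0.133 CPM per kilobase in inputs, and eIF3d2 had 0 counts in all 18. The paralogs eIF4E3 and eIF4G2 are known for roles in the male germ line, and 10 testis markers summed to at most 4.04 CPM in any input, yet eIF4G2 was at 542 to 1759 counts per input library. The value of eIF5 cannot be taken as its expression. Of its exon bases, 80.8% lie within another gene on the same strand, CG46312, and reads there fit both genes. eIF5 had 57 counts over all inputs and CG46312 had 0 in all 36 libraries. Beyond eIF5, only eIF2gamma (16%, same strand, Su(var)3-9), eIF3h (16.8%, opposite strand, senju) and eIF2alpha (12.6%, opposite strand, rngo) shared 10% or more of their exon bases, and the strand setting of the count is not given in the sources used here.

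In pulldowns eIF4A was again highest, at 524 CPM per kilobase, with group means from 316 to 789. It was followed by eIF2A (169), eIF3h (142) and eIF3m (120), with eIF3b next. Several eIF2B subunits had under 10 counts in some pulldown libraries, and eIF2Balpha had 0 counts in all 3 background pulldowns at 7 dpa, so that no fold is given for it.

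**Figure D1:**
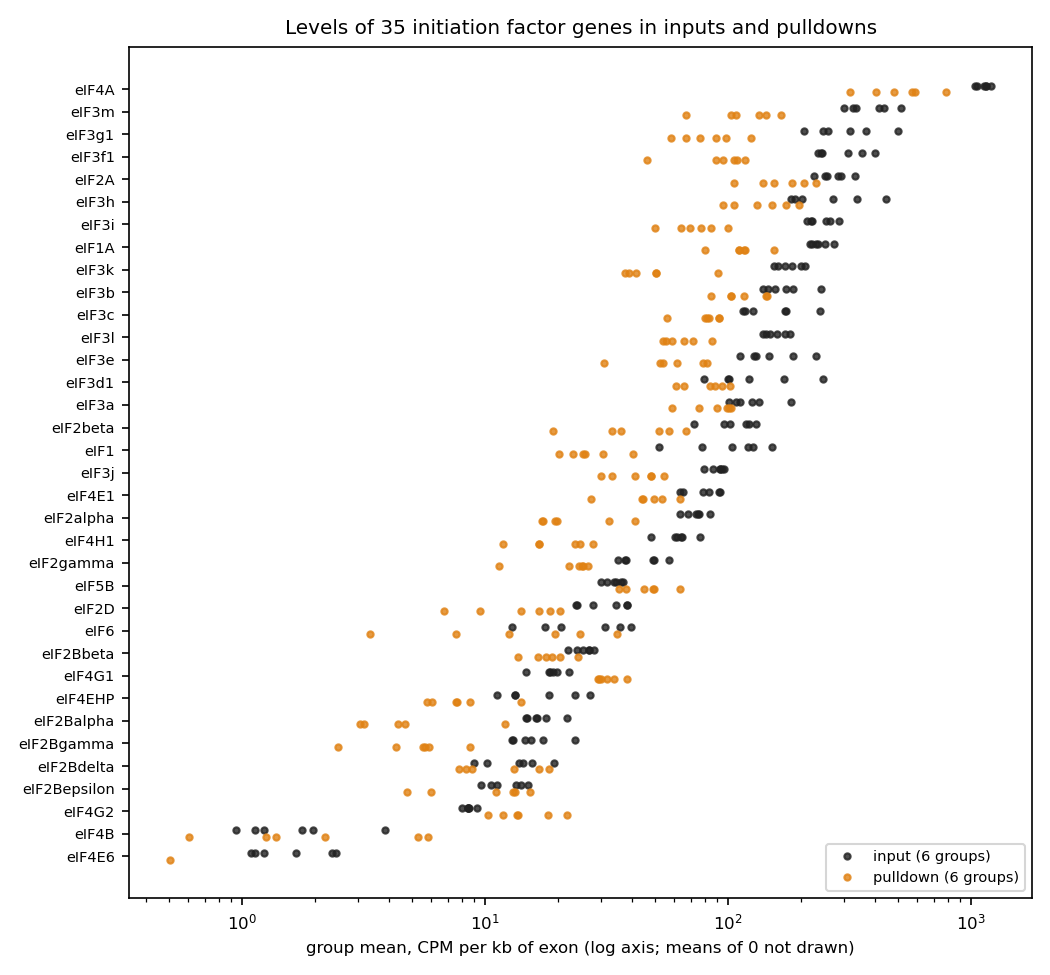
Levels of the 35 members with the highest input level. Each point is the mean of the 3 libraries of a group in CPM per kilobase of exon on a log axis, black for the 6 input groups and orange for the 6 pulldown groups. The order runs from eIF4A at 1122 to eIF4E6 at 1.65 CPM per kilobase of input, and pulldown points lie left of input points for most genes. Averaged over groups, the plotted members with a higher level in pulldown are eIF4B, eIF4G1, eIF4G2 and eIF5B.

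Injury was tested first in the inputs, with edgeR's quasi-likelihood test and Benjamini-Hochberg adjustment over all 10437 genes tested, 36 of them members. Calls needed both a change of more than 0.6 on the log2 scale and an adjusted p no higher than 0.05. In background heads 4 members rose and 0 fell, while 9.99% of all genes rose. In wild type 3 members rose and 1 fell, where 17.8% of all genes rose and 10.7% fell. A total of 17 members rose and 3 fell in libraries labelled dnmnatOE, against 26.5% and 24.2% of all genes. In bulk samples such as these, fewer cells of a type and less RNA per cell cannot be told apart.

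The fold limit hid smaller changes that many members shared. At an adjusted p of at most 0.05 alone, 20 members were higher and 2 lower at 7 dpa in background, where 17.4% of genes were higher and 10.3% lower. In wild type 18 were higher and 2 lower, where 24.6% of genes were higher and 19% lower. Together the 44 members summed to 8876 ± 44.1 CPM in uninjured and 10532 ± 387 CPM in 7 dpa background inputs (SD, n = 3). The sums were 9208 ± 104 and 10626 ± 20.7 CPM in wild type, and 9098 ± 266 and 12112 ± 294 CPM in libraries labelled dnmnatOE.

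These directions depend on the scaling of the libraries. CPM here are relative to library sizes adjusted by TMM, which sets the bulk of genes to no change, and TMM factors ran from 0.678 to 1.19 in inputs, lowest at 7 dpa in libraries labelled dnmnatOE. As a plain share of counts on genes, the members took 1.04% to 1.07% of uninjured and 0.819% to 0.849% of 7 dpa libraries labelled dnmnatOE, a fall rather than a rise. With library totals the median of all genes lay 0.75 lower on the log2 scale in that comparison and 0.38 lower in wild type. Only 1 member, eIF6, then rose and 9 fell in libraries labelled dnmnatOE, and upper-quartile scaling gave 7 that rose and 6 that fell. Of all genes, 60.9% were called in either direction with library totals and 53.8% with the upper quartile. In wild type 1 rose and 3 fell with library totals, and 1 rose and 1 fell with the upper quartile. There 39.3% and 32.2% of all genes were called in either direction.

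A change of scaling adds nearly the same value to every gene, so the difference between the members and all genes is fixed by construction and is no sign of stability. The median log2 fold change of the members minus that of all genes was 0.22 in background, 0.22 in wild type and 0.52 in libraries labelled dnmnatOE. The members' own medians were 0.23, 0.20 and 0.46 with TMM. The changes below are on the TMM scale, relative to the bulk of genes, unless another scaling is named. Beside them in the inputs labelled dnmnatOE, 5 of 5 fat body markers rose on the TMM scale and the 20 most abundant genes took 29.3% to 30% of all counts at 7 dpa against 23.3% to 25.4% before. The part of these shifts in the members' changes was not tested.

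**Figure D2:**
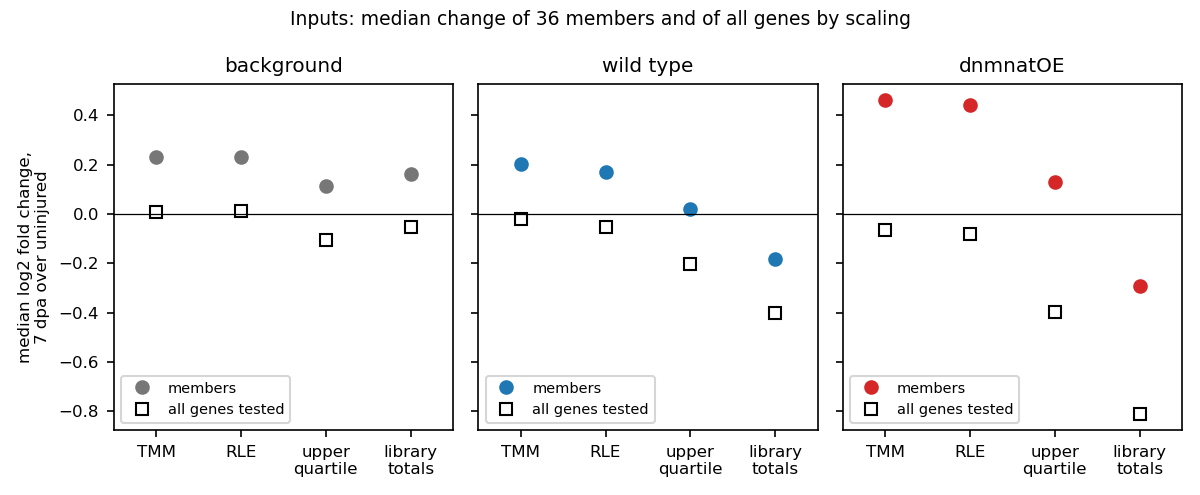
Median log2 fold change with injury in inputs of the 36 tested members (filled circles) and of all genes tested (open squares), by genotype and by the scaling of the libraries. The members' median in libraries labelled dnmnatOE runs from 0.46 with TMM to −0.29 with library totals. Members and all genes move together by construction, so their gap of 0.52 there carries no information on the scaling.

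Among the subunits of eIF3, 9 of 12 tested rose with injury in libraries labelled dnmnatOE, 2 of 12 in background and 2 of 12 in wild type. The shares of all genes that rose were 26.5%, 9.99% and 17.8%, so the counts in background and wild type lie near those of all genes. eIF3d1 (chr3R:23680039-23682317, plus strand) encodes a subunit whose human counterpart contacts the cap. Its level was 173, 158 and 151 CPM in uninjured and 247, 276 and 213 CPM in 7 dpa background inputs. In wild type it was 201, 206 and 203 CPM before and 348, 321 and 352 CPM after, and in libraries labelled dnmnatOE 176, 218 and 209 CPM before and 467, 499 and 514 CPM after. In each genotype all 7 dpa libraries were above all uninjured ones. Here and below, overlap of groups is read from the same libraries as the test and is no separate support. It was not counted over all genes. The log2 fold changes were 0.61 ± 0.08 (SE), 0.74 ± 0.08 and 1.30 ± 0.08, with adjusted p of 8.3e-09, 1.31e-11 and 2.6e-20 by edgeR.

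eIF3h (chr2L:5051193-5053094, minus strand), a subunit with an MPN domain, was also higher at 7 dpa in each genotype. It was at 278, 280 and 285 CPM before and 420, 430 and 365 CPM after injury in background, and at 291, 298 and 316 CPM before and 520, 463 and 536 CPM after in wild type. It went from 268, 277 and 268 CPM to 619, 701 and 679 CPM in libraries labelled dnmnatOE. Again no 7 dpa library overlapped an uninjured one. Its log2 fold change was 1.30 ± 0.07 in libraries labelled dnmnatOE (adjusted p = 1.76e-23), 0.75 ± 0.07 in wild type and 0.53 in background, the last below the fold limit. With library totals the change in libraries labelled dnmnatOE was 0.55 for eIF3h and 0.55 for eIF3d1, past the limit on adjusted p but not the fold limit, and it was 0.96 for each with the upper quartile.

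The other core and peripheral subunits rose by less. In libraries labelled dnmnatOE the log2 fold change was 1.06 for eIF3c, 1.04 for eIF3e, 1.02 for eIF3g1, 0.77 for eIF3f1, 0.69 for eIF3a, 0.66 for eIF3m and 0.63 for eIF3b. The scaling decides the sign for some of these. With library totals eIF3a was at −0.05, eIF3b at −0.12 and eIF3m at −0.09, whereas eIF3c (0.31), eIF3e (0.29) and eIF3g1 (0.27) stayed above 0. The subunits did not move as a block, since eIF3i (0.44) and eIF3k (0.37) were under the fold limit and eIF3l, at 315, 323 and 347 CPM before and 316, 310 and 316 CPM after, had a log2 fold change of −0.06. The call of eIF3a in libraries labelled dnmnatOE was lost without uninjured replicate 1, at a log2 fold change of 0.57. In background, eIF3g1 was at 0.62 ± 0.07 and lost its call without 7 dpa replicate 1, at 0.58, and eIF3d1 lost its call without uninjured replicate 3 or without 7 dpa replicate 2, at a lowest value of 0.52. None of the 4 background calls stood with library totals or the upper quartile, each of which gave 0 that rose and 1 that fell, eIF1. These scalings called 15.4% and 15.6% of all genes in either direction.

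Of the 3 subunits of eIF2, the carrier of the initiator tRNA, 2 rose in libraries labelled dnmnatOE. eIF2beta went from 71.2, 80.3 and 93.3 CPM to 126, 139 and 136 CPM, a log2 fold change of 0.71 ± 0.09. eIF2gamma, the GTP-binding subunit, went from 71.7, 79.2 and 80.8 CPM to 130, 127 and 118 CPM (0.70 ± 0.09). Neither overlapped between the groups, but with library totals the values were −0.04 and −0.05. eIF2alpha, whose phosphorylation by stress kinases slows initiation, was at 107, 112 and 118 CPM before and 132, 111 and 139 CPM after, with overlapping groups. None of the 3 passed the fold limit in background or wild type.

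The eIF2B subunits, which form the exchange factor of eIF2, were expressed at lower levels and with more spread. In libraries labelled dnmnatOE eIF2Bdelta, a regulatory subunit, was at 18.9, 16 and 31.6 CPM before and 41.9, 46.6 and 36.7 CPM after (0.91 ± 0.18, adjusted p = 1.74e-05). The catalytic-side subunits eIF2Bgamma (0.86 ± 0.18) and eIF2Bepsilon (0.64 ± 0.15) rose too, while eIF2Balpha and eIF2Bbeta were at 0.29 and 0.35 and were not called. The call of eIF2Bepsilon was lost without 7 dpa replicate 3, at 0.53, and with library totals the 3 values were 0.16, 0.10 and −0.11. In background eIF2Bdelta was at 0.61 ± 0.18 and lost its call without uninjured replicate 2, uninjured replicate 3 or 7 dpa replicate 2, at a lowest value of 0.51.

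eIF6 (chr2R:23849246-23850301, minus strand) keeps the large ribosomal subunit from joining too early and also acts in its assembly. It was at 20.1, 21.9 and 22.9 CPM in uninjured and 31.1, 39.3 and 27.9 CPM in 7 dpa background inputs, and at 16.4, 19 and 20.2 CPM and then 34.6, 44.5 and 47.3 CPM in wild type. In libraries labelled dnmnatOE it went from 14.8, 11.9 and 14.3 CPM to 35.2, 37.7 and 40.1 CPM. The groups did not overlap in any genotype. Its log2 fold change of 1.46 ± 0.17 in libraries labelled dnmnatOE (2.76-fold, adjusted p = 6.47e-11) and 1.19 ± 0.16 in wild type (2.27-fold) were called with TMM, library totals (0.71 and 0.80) and the upper quartile (1.13 and 1.00). In background it was at 0.60 ± 0.17 and lost its call without uninjured replicate 1 or without 7 dpa replicate 2, at a lowest value of 0.45.

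eIF1 (chr3L:3223341-3224650, plus strand), which guards the fidelity of start codon choice, moved the other way. It was at 100, 96.4 and 113 CPM in uninjured and 73.1, 65.2 and 73.6 CPM in 7 dpa background inputs, and at 87.2, 85.9 and 85.6 CPM and then 52.3, 60.1 and 46.7 CPM in wild type. In libraries labelled dnmnatOE it went from 80.8, 74.5 and 89.9 CPM to 37.1, 31.6 and 37.0 CPM. All 7 dpa libraries lay below all uninjured libraries of the same genotype. The log2 fold change was −0.55 in background, under the fold limit, −0.70 ± 0.11 in wild type and −1.21 ± 0.11 in libraries labelled dnmnatOE (adjusted p = 7.58e-14), and with library totals it was −0.61, −1.08 and −1.96 and was called in each. The tRNA delivery factor eIF2D rose in libraries labelled dnmnatOE (0.70 ± 0.13), but not without 7 dpa replicate 3 (0.55) and not with library totals (−0.05). eIF1A, eIF2A, eIF3j and eIF5B, all start codon or subunit joining factors, stayed within 0.39 of 0 in each genotype.

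**Figure D3:**
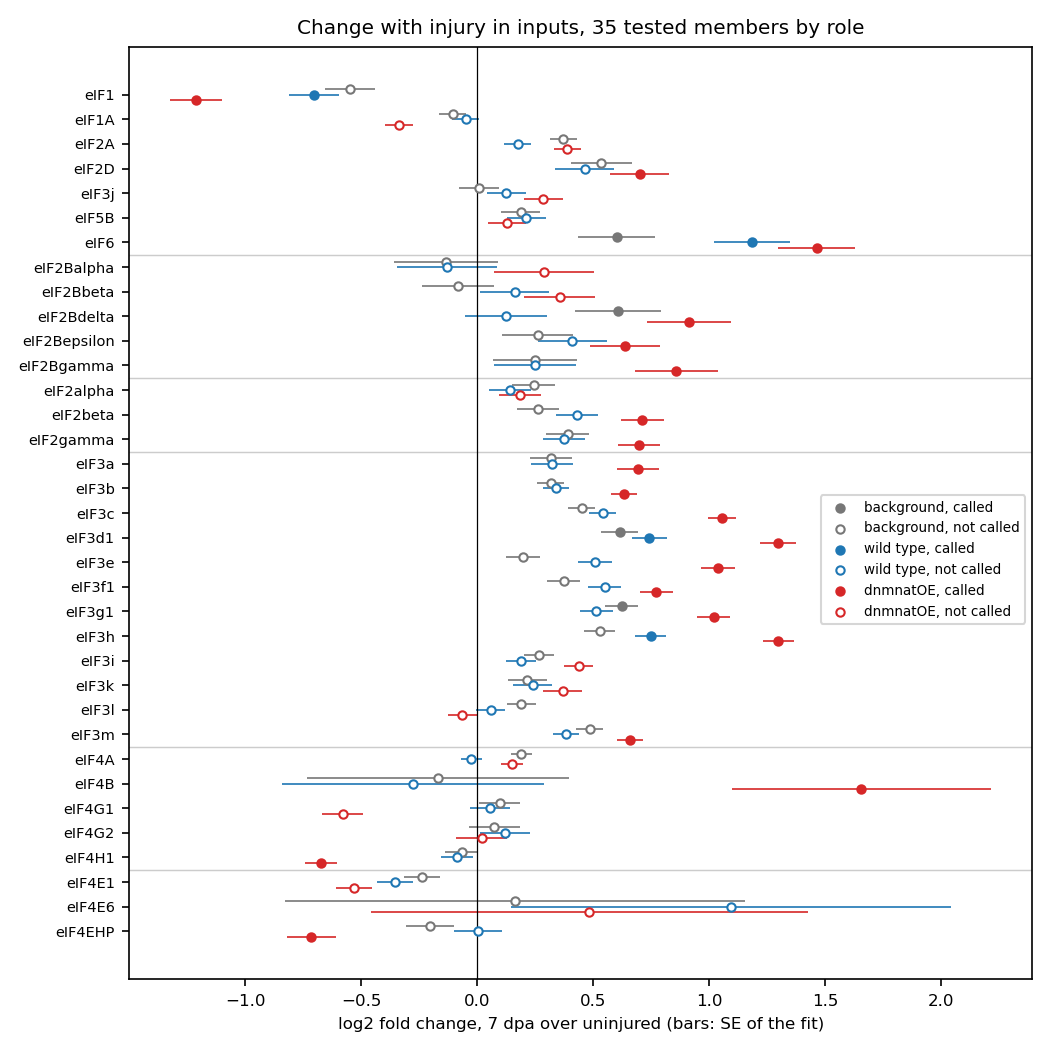
Log2 fold change with injury (7 dpa over uninjured, TMM scale, bars are the SE of the fit) of 35 tested members in inputs, in gray for background, blue for wild type and red for libraries labelled dnmnatOE, grouped by role, eIF5 left out for its low counts. Filled points passed both limits. 9 of 12 eIF3 subunits are filled in red, and with library totals all red points lie 0.75 further left relative to 0, with eIF6 then alone in being called above 0.

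Cap recognition and eIF4F did not share the rise. In libraries labelled dnmnatOE eIF4EHP (chr3R:24063077-24108960, minus strand), a cap-binding repressor that does not bind eIF4G, fell from 127, 114 and 112 CPM to 73.1, 82.7 and 59.8 CPM, a log2 fold change of −0.71 ± 0.10. The cofactor eIF4H1 fell from 349, 346 and 322 CPM to 231, 216 and 191 CPM (−0.67 ± 0.07). Both groups were apart and both falls were called with library totals and the upper quartile as well, though the call of eIF4EHP was lost without 7 dpa replicate 3, at −0.60. eIF4E1, the main cap-binding protein, was at −0.53 and the scaffold eIF4G1 at −0.58, both with an adjusted p below the limit but short of the fold limit with TMM and called with library totals (−1.28 and −1.33). eIF4A, by far the most abundant member, was at 0.15 with TMM and −0.60 with library totals.

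eIF4B, a helper of eIF4A, was called in libraries labelled dnmnatOE at 1.66 ± 0.56, but the value was decided by a single library. It was at 1.87, 3.56 and 1.63 CPM before and 2.13, 3.99 and 16.1 CPM after injury, and the groups overlapped. The high library, 7 dpa replicate 3, had 220 counts against 33 and 45 in the others. Without it the log2 fold change was 0.37 and the call was lost.

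**Figure D4:**
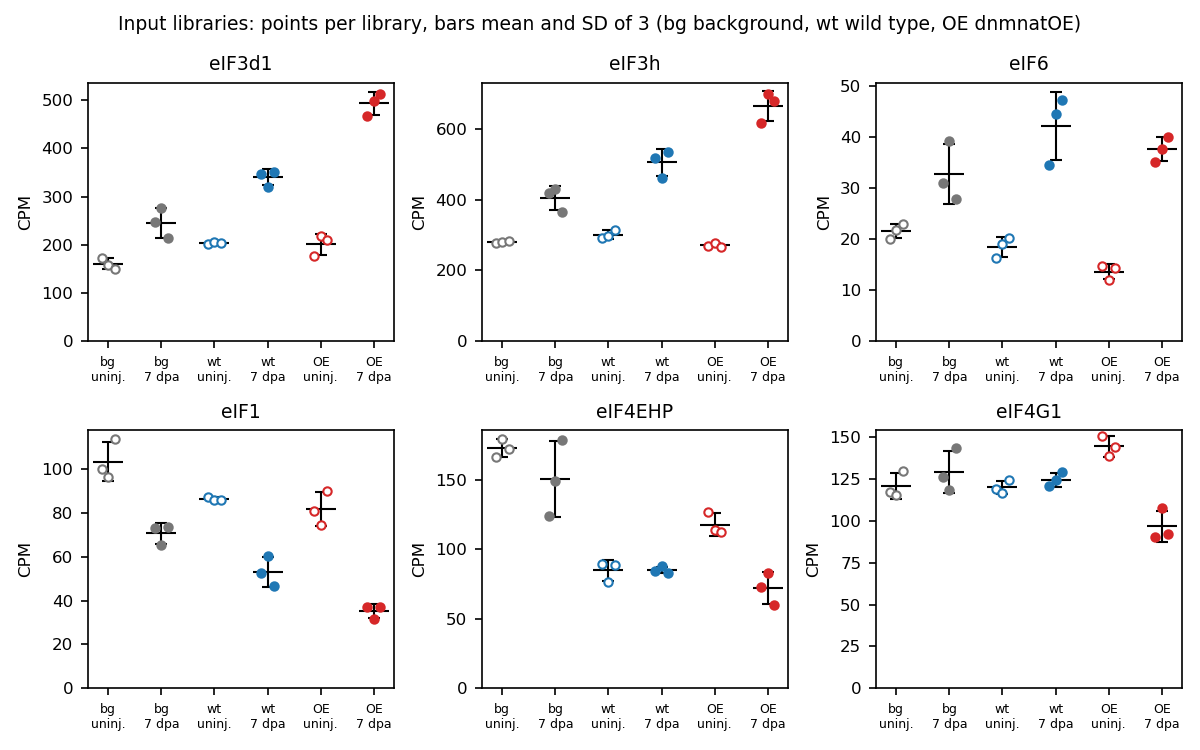
Input levels of eIF3d1, eIF3h, eIF6, eIF1, eIF4EHP and eIF4G1 in CPM (TMM scale). Points are libraries, open for uninjured and filled for 7 dpa, and bars give the mean and SD of 3. eIF3d1 and eIF3h at 7 dpa stand highest in libraries labelled dnmnatOE, eIF1 lowest there, and eIF4EHP has its highest mean in background before injury, at 167 to 180 CPM.

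The injury comparisons of the 3 genotypes share no library, and so the members' changes can be set side by side. In inputs, across 35 members, eIF5 left out, Pearson's r between background and wild type changes was 0.77, against 0.52 across all 10437 genes. It was 0.72 between background and libraries labelled dnmnatOE (all genes 0.56) and 0.67 between wild type and libraries labelled dnmnatOE (all genes 0.67). In pulldowns, across 33 members, r was −0.21 between background and wild type (all genes 0.14) and −0.09 between background and libraries labelled dnmnatOE (all genes 0.27). Between wild type and libraries labelled dnmnatOE r was 0.60 there (all genes 0.31). Members with too few pulldown reads for a fold, such as eIF2Balpha and eIF6, enter these pulldown values. By ranks (Spearman's rho) they were −0.06, 0.11 and 0.74 in the same order (all genes 0.16, 0.23 and 0.32). The sign was the same for 16, 22 and 25 of the 33 members, beside 56.1%, 58.0% and 62.1% of all genes. Genes are not independent replicates and the values of a fraction share the scaling of its fit, so these are descriptions.

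Whether injury changed inputs more in libraries labelled dnmnatOE than in wild type was tested as an interaction. It was called for 3 members, 1 higher and 2 lower, against 13% and 9.15% of all genes. eIF4EHP was at 89.6, 76.2 and 88.8 CPM before and 84.6, 87.6 and 82.9 CPM after injury in wild type, where the groups overlapped, and its difference of changes was −0.72 ± 0.15 (adjusted p = 0.00011). eIF4G1 (chr4:915297-930715, minus strand) was at 119, 117 and 125 CPM before and 121, 124 and 129 CPM after in wild type, while in libraries labelled dnmnatOE it went from 151, 139 and 144 CPM to 90.7, 108 and 92.5 CPM (−0.63 ± 0.12, adjusted p = 4.26e-05). eIF2Bdelta was at 0.79 ± 0.25 (adjusted p = 0.0129). The call of eIF4G1 was lost without 7 dpa replicate 1 labelled dnmnatOE, at −0.59, and that of eIF2Bdelta without uninjured replicate 2 of wild type or of dnmnatOE, at a lowest value of 0.60. With library totals 0 members were higher and 5 lower, and with the upper quartile 1 was higher and 4 were lower. These scalings called 27.9% and 22.9% of all genes in either direction. On adjusted p alone 12 members were higher and 5 lower, beside 1749 and 1289 of the 10437 genes, and 9 of the 12 eIF3 subunits were among the higher ones. For eIF3h (0.55), eIF3d1 (0.55) and eIF3c (0.51), for example, the difference had an adjusted p below 0.05 without passing the fold limit.

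Few members passed both limits between genotypes in inputs, and more passed on adjusted p alone. Between uninjured libraries labelled dnmnatOE and wild type 0 of 36 members were called by edgeR, where 7.54% of genes were, and DESeq2 called 0 too. An unadjusted p below 0.05 was found for 12 members, beside 2713 of the 10437 genes. At 7 dpa only eIF4B was called, higher at 2.03 ± 0.57, against 5.98% of genes, and without 7 dpa replicate 3 labelled dnmnatOE it was at 0.75 and not called. On adjusted p alone 14 members were higher and 3 lower at 7 dpa, beside 16.2% and 12.9% of all genes, and 10 of the 12 eIF3 subunits were among the higher ones. Under the fold limit, eIF3d1 (0.54), eIF3c (0.48), eIF3g1 (0.44), eIF3a (0.44) and eIF3h (0.40) were higher and eIF1 (−0.59) lower in libraries labelled dnmnatOE. With library totals the 7 dpa comparison gave 1 higher and 3 lower members, and with the upper quartile 1 of each. Beside them, 21.2% and 13.1% of all genes were called in either direction.

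eIF4EHP differed between wild type and background before any injury. It was at 167, 180 and 172 CPM in background and 89.6, 76.2 and 88.8 CPM in wild type (−1.03 ± 0.10, adjusted p = 1.96e-11), where 1.15% of genes were lower, and at 124, 149 and 178 against 84.6, 87.6 and 82.9 CPM at 7 dpa (−0.82 ± 0.10), where 3.05% were lower. The groups were apart at both times and the calls stood with every scaling. Of its exon bases 6.97% lie within Syx1A on the same strand. eIF2Bdelta was the only member called higher in wild type, by 0.67 ± 0.18 before injury, where 5.37% of genes were higher. That call was lost with the upper quartile (0.59), without uninjured replicate 2 of background and without uninjured replicate 2 of wild type, at a lowest value of 0.53. On adjusted p alone 4 members were higher and 1 lower before injury, beside 969 and 431 of the 10437 genes. At 7 dpa 5 were higher and 3 lower, beside 1807 and 980 genes.

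In pulldowns 33 members were among the 7213 genes tested, and the spread was wider, with a biological coefficient of variation of 0.460 against 0.198 in inputs. The members took 0.407% to 0.690% of counts on genes. With injury, 1 member rose in background, where 1.64% of genes rose. This was eIF3h, from 113, 174 and 186 CPM to 253, 209 and 313 CPM (0.72 ± 0.21), and the call was lost without each of 4 libraries in turn (uninjured replicates 1 and 2 and 7 dpa replicates 1 and 3, lowest value 0.52). In wild type 0 members were called by edgeR, where 6.22% of genes were called in either direction. There 5 members had an unadjusted p below 0.05, beside 1477 of the 7213 genes. DESeq2 called 1 member, eIF6, and library totals gave 2 higher, eIF2A and eIF6, of which eIF6 had too few pulldown reads for a fold. Of all genes, DESeq2 called 8.85% and library totals gave 6.47%, in either direction.

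In pulldowns labelled dnmnatOE 5 members rose with injury and 2 fell, against 7.36% and 4.49% of all genes. eIF2A, which can bring initiator tRNA to the ribosome without eIF2, rose from 312, 295 and 285 CPM to 539, 444 and 564 CPM (0.79 ± 0.15, adjusted p = 5.54e-05). eIF3f1 rose from 63.5, 54.5 and 63.4 CPM to 118, 131 and 174 CPM (1.22 ± 0.28), and eIF3a from 219, 241 and 221 CPM to 391, 372 and 387 CPM (0.75 ± 0.18). These 3 kept their calls in every fit without a library, and their groups did not overlap. eIF3c (0.70 ± 0.19) lost its call without uninjured replicate 1 or 7 dpa replicate 2, at a lowest value of 0.57, and eIF2beta (1.43 ± 0.50), at 18.8, 8.94 and 36.6 CPM before and 43.4, 46.0 and 86.7 CPM after, lost it without any of 5 libraries, at a lowest value of 0.99. Only uninjured replicate 3 could be left out without losing the call of eIF2beta.

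The members that fell in pulldowns labelled dnmnatOE belonged to cap recognition and eIF4F. eIF4E1 went from 176, 141 and 107 CPM to 53.5, 69.6 and 59.8 CPM (−1.22 ± 0.32) and eIF4H1 from 121, 104 and 102 CPM to 51.0, 54.3 and 51.3 CPM (−1.06 ± 0.31), both without overlap. The call of eIF4E1 was lost without uninjured replicate 1, at −1.03, and that of eIF4H1 without uninjured replicate 1, 7 dpa replicate 1 or 7 dpa replicate 3. Over the 6 fits without a library the value of eIF4H1 ran from −1.14 to −0.98. Library totals left 4 higher and 2 lower members, eIF2beta being the call lost, while 11.4% of all genes were called in either direction. That injury changed any member differently in pulldowns labelled dnmnatOE and wild type was not detectable. The interaction was called by edgeR for 0 of 33 members and 3.05% of genes, and DESeq2 called 0 members. An unadjusted p below 0.05 was found for 5 members, beside 1013 of the 7213 genes. In the pulldowns labelled dnmnatOE the 4 neuronal markers summed to 1696 to 1849 CPM before and 1547 to 1578 CPM after injury. The 5 photoreceptor markers summed to 9151 to 9252 and then 4422 to 4780 CPM. Fat body markers summed to a mean of 23901 CPM before and 37378 CPM after, with Yp2 and Yp3 called higher among the 4 tested, and the part of these shifts in the members' changes was not tested.

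Before injury, 5 members were lower in pulldowns labelled dnmnatOE than in wild type pulldowns and 0 were higher, where 4.16% of all genes were lower. eIF4A was at 1109, 1356 and 1105 CPM in wild type and 801, 784 and 763 CPM in libraries labelled dnmnatOE, a log2 difference of −0.60 ± 0.11 (adjusted p = 4.79e-05). eIF3b was at 391, 426 and 339 against 219, 241 and 222 CPM (−0.76 ± 0.17), and eIF3f1 at 153, 101 and 117 against 63.5, 54.5 and 63.4 CPM (−1.03 ± 0.28). eIF3m (−0.68 ± 0.22) and eIF3h (−0.67 ± 0.21) completed the group. None of these 5 overlapped between the genotypes, which adds no support, since their calls rest on the same libraries.

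The calls of these 5, though not their direction, rested on the scaling. With library totals all 5 were still lower, at −0.09 for eIF4A, −0.24 for eIF3b, −0.52 for eIF3f1, −0.15 for eIF3m and −0.16 for eIF3h, but 0 of the 5 were called and 3 other members were higher, eIF4EHP (1.40), eIF4G2 (0.93) and eIF4G1 (0.80). The median of all genes moved by 0.52 between the scalings, and 14.8% of genes were called in either direction with library totals. The members' own median changed sign, from −0.34 with TMM to 0.15 with library totals. With TMM 10 of 33 members were above 0, and with library totals 23 were. Their median lay below that of all genes by 0.37 with TMM (a difference of −0.37) and by 0.40 with library totals (−0.40). That gap is nearly fixed by construction and is no sign of stability. Only eIF3b kept its call without each library in turn. eIF3h lost it without each of the 6, eIF3m without any but wild type replicate 3, eIF3f1 without wild type replicate 1 or any replicate labelled dnmnatOE, and eIF4A without wild type replicate 2 or dnmnatOE replicates 2 or 3. Their values then ran from −0.71 to −0.54 for eIF3h, from −0.80 to −0.55 for eIF3m, from −1.15 to −0.84 for eIF3f1 and from −0.65 to −0.49 for eIF4A. The 20 most abundant genes took 47.5% to 51.4% of the wild type libraries and 26.9% to 36.9% of those labelled dnmnatOE, and the part of this in the members' differences was not tested.

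At 7 dpa no member passed both limits between these genotypes in pulldowns. edgeR called 0 of 33 members and 2.61% of genes in either direction, and DESeq2 called 0 members. An unadjusted p below 0.05 was found for 5 members, beside 794 of the 7213 genes. eIF4A passed the limit on adjusted p but not the fold limit, at 1376, 1418 and 1565 CPM in wild type and 1081, 898 and 1028 CPM in libraries labelled dnmnatOE (−0.54, adjusted p = 0.00068), without overlap.

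**Figure D5:**
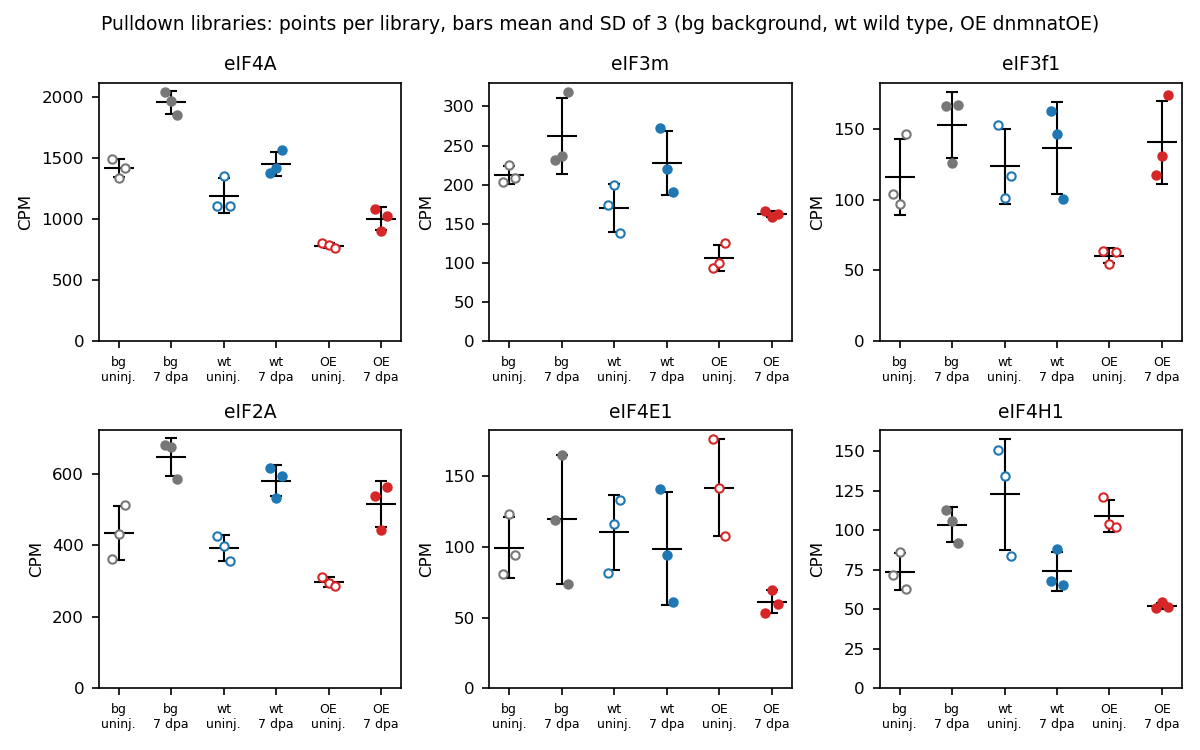
Pulldown levels of eIF4A, eIF3m, eIF3f1, eIF2A, eIF4E1 and eIF4H1 in CPM (TMM scale). Points are libraries, open for uninjured and filled for 7 dpa, and bars give the mean and SD of 3. Uninjured libraries labelled dnmnatOE are lowest in eIF4A, at 763 to 801 CPM, a position below wild type that was not called with library totals, and eIF4E1 and eIF4H1 are lower after injury there.

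Background pulldowns hold no tagged ribosome, so the comparison of wild type with background asks which RNAs the tagged ribosomes added. No member passed both limits in it. Wild type and background pulldowns differed in 0 of 33 members before injury (3.01% of genes in either direction, 1 member called by DESeq2) and in 0 at 7 dpa (3.05% of genes, 0 by DESeq2). An unadjusted p below 0.05 was found for 8 and 4 members, beside 1127 and 983 of the 7213 genes. Pulldowns labelled dnmnatOE were lower than background ones in 5 members before injury, where 3.41% of genes were lower, and in 3 at 7 dpa, where 2.19% were. eIF4A was called at both times, at −0.86 ± 0.11 before injury, where background was at 1490, 1339 and 1420 CPM, and at −0.96 ± 0.11 at 7 dpa. It kept both calls without each library in turn, and eIF3m (−1.0 ± 0.22) was the only other call before injury to do so. With library totals 1 member was higher before injury, eIF4G1, and 1 lower at 7 dpa, eIF4A. Beside them, 7.86% and 5.41% of all genes were called in either direction.

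Of the remaining calls against background, eIF3e (−1.36 ± 0.33) was lost without dnmnatOE replicate 3, at −1.05. eIF3a (−0.62 ± 0.18) and eIF3f1 (−0.93 ± 0.28) were each lost in 5 of 6 fits, at values from −0.66 to −0.54 and from −1.04 to −0.73. At 7 dpa eIF1A (−0.92 ± 0.24) was lost without replicate 2 or 3 of either genotype, at values from −1.11 to −0.78, and eIF3m (−0.69 ± 0.22) in all 6 fits, at values from −0.77 to −0.52.

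The members were compared between pulldown and input within a fit of all 36 libraries that tested 9860 genes, 34 of them members. In background, where the beads took up RNA without a tagged ribosome, 22 members were lower in pulldown than in input and 3 higher, while 29.3% of genes were lower and 16.3% higher. The 3 higher ones were eIF4G1 (0.73 ± 0.11), eIF4G2 (1.07 ± 0.17) and eIF5B (0.73 ± 0.12), which has the GTPase role in subunit joining. Among the lower ones were eIF4H1 (−1.66 ± 0.11), eIF3i (−1.57 ± 0.14), eIF3g1 (−1.47 ± 0.14) and eIF3f1 (−1.41 ± 0.12). Inputs were made from poly-A RNA and pulldowns without that step, so the fraction and the library preparation cannot be told apart. With library totals 24 were lower and 1 higher, and 48.4% of all genes were called in either direction. The call of eIF2D (−0.78 ± 0.25) was lost without uninjured pulldown replicate 2, at −0.59.

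The gene models of the 3 higher members were among the longest. The exons of eIF4G2, eIF4G1 and eIF5B cover 9097, 6565 and 4410 bases, but eIF4EHP (6418 bases) and eIF4H1 (4430 bases) were lower in pulldown. Exon length was not used in the test, and its part was not tested.

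Against this background contrast, the enrichment of pulldown over input was compared between genotypes, averaged over uninjured and 7 dpa libraries. In wild type 0 of 34 members differed from background by edgeR, where 3.36% of genes did in either direction, and DESeq2 called 1. An unadjusted p below 0.05 was found for 7 members, beside 1695 of the 9860 genes. Against background, 1 member was more enriched and 5 less in libraries labelled dnmnatOE, beside 3.92% and 2.96% of genes. eIF4EHP was higher by 1.38 ± 0.25 (adjusted p = 8.95e-05), and this call stood with every scaling and without each library. Its input level, which enters this ratio, was higher in background than in libraries labelled dnmnatOE. In pulldowns alone 0 of the 2 tested eIF4E family members, eIF4EHP among them, differed between these genotypes at an adjusted p of at most 0.05, before injury or at 7 dpa. eIF3e (−1.13 ± 0.19), eIF3m (−0.96 ± 0.13), eIF4A (−0.77 ± 0.08), eIF3g1 (−0.69 ± 0.19) and eIF3b (−0.61 ± 0.11) were lower. With library totals 4 were higher and 0 lower, 20.9% of all genes were called in either direction, and the median of all genes was 0.54 higher.

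eIF3e, eIF3m and eIF4A kept their calls without each of 24 libraries. eIF3b kept it in only 4 of 24 fits, with values from −0.62 to −0.52, and eIF3g1 lost it without uninjured input replicate 3 or uninjured pulldown replicate 2 labelled dnmnatOE, 7 dpa pulldown replicate 1 labelled dnmnatOE, background input 7 dpa replicate 3 or background uninjured pulldown replicate 1, at values down to −0.54. At 7 dpa, libraries labelled dnmnatOE were less enriched than wild type in eIF3h (−0.93 ± 0.19, adjusted p = 0.00134) and eIF3m (−0.66 ± 0.18, adjusted p = 0.0209), where 1.5% of genes were lower. With library totals 0 members were lower there and 3 higher, and 13.6% of all genes were called in either direction. The call of eIF3m was lost without wild type input replicate 1 or 2, wild type pulldown replicate 1, or pulldown replicate 2 or 3 labelled dnmnatOE, with values from −0.76 to −0.50.

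Other genes of the pathway that are not initiation factors by name were taken from a fixed list of regulators of eIF2 and the cap complex, partner proteins, and elongation and release factors, of which 38 were in the files and 37 tested in inputs. With injury 2 rose and 3 fell in background, where 9.99% of all genes rose and 5.25% fell. In wild type 6 rose and 3 fell, beside 17.8% and 10.7% of all genes, and in libraries labelled dnmnatOE 13 and 6, beside 26.5% and 24.2%. The list's median log2 fold changes were 0.17, 0.09 and 0.17. PEK, the kinase of endoplasmic reticulum stress that phosphorylates eIF2alpha, rose in all 3, by 1.15 ± 0.09, 1.67 ± 0.08 and 3.40 ± 0.09. Thor, the fly 4E-BP that holds eIF4E1 from eIF4G, fell by 0.66 in wild type and by 1.51 in libraries labelled dnmnatOE. larp (1.96), Tsc1 (1.53), S6k (0.80) and NAT1, an eIF4G relative (0.95), rose in the latter, whereas the neuronal elongation factor eEF1alpha2 fell by 2.77, Rheb by 1.30 and Fmr1 by 0.95.

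In pulldowns 35 of these genes were tested, and with injury 8 rose and 4 fell in libraries labelled dnmnatOE, beside 7.36% and 4.49% of all genes. The elongation factors eEF1alpha1 (1.47 ± 0.08), eEF1gamma (1.03 ± 0.12) and eEF2 (0.83 ± 0.08) and the ribosomal protein gene RpS6 (1.05 ± 0.13) were among those that rose. Before injury 1 was higher and 6 lower in pulldowns labelled dnmnatOE than in wild type, beside 2.48% and 4.16% of all genes, with eEF1alpha1 (−0.97 ± 0.08), eEF1gamma (−0.95 ± 0.12) and eEF2 (−0.71 ± 0.08) lower. Both comparisons share the uninjured libraries labelled dnmnatOE, as they do for eIF3f1 above, so their directions are not independent.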

How the data were processed

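RNA of fly heads was sequenced as input and pulldown in 36 libraries. The deposited values are whole-number counts per gene, without normalization, which the authors made with HTSeq after Trimmomatic, HISAT2 and SAMtools, as the methods and the submitters' processing notes give. Versions, counting mode and strand setting are not given in the sources used here. In each file 5 summary rows name no gene and were left out; the rows for no feature and ambiguous reads held 0.925% to 1.91% and 1.92% to 3.21% of inputs and 7.44% to 10.8% and 48.5% to 60.3% of pulldowns.

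Groups came from the sample labels. Counts were fitted in R 4.3.3 with edgeR 4.0.16 (filterByExpr, TMM, robust quasi-likelihood, a coefficient per group, Benjamini-Hochberg over all genes tested) in 3 fits, of inputs, of pulldowns and of both. The fits kept 36, 33 and 34 of the 44 members. Genes past 0.6 on the log2 scale with an adjusted p no higher than 0.05 were called, the limits in the study's methods. CPM are counts over TMM-adjusted library sizes, with SD over 3 libraries. Alternatives were DESeq2 1.42.0, RLE scaling, no filter on low counts, no fold limit, a replicate term, and leaving out each library; library totals and upper-quartile scaling were added after seeing the data. Chi-square values per gene between libraries of the same group were 4.04 to 34.3, so none were duplicates. The fits of inputs and of pulldowns were tested on simulated data, for the injury comparison labelled dnmnatOE. The fit of both fractions was not tested in this way. Of the 17611 genes 17559 had a symbol in the Ensembl release 115 annotation, which gave positions, exon lengths and overlaps.

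The members, the gene lists, the tests and the rule for naming genes (all members may be named, with full values for those called, the highest and lowest in level, and those that 1 library decides) were chosen with earlier results of these data known. A fold was not given where a group was at or under 3 counts per library. Marker lists for glia and ovary were also summed, and ran from 255 to 378 CPM and from 3.82 to 16.0 CPM in inputs. No sequences are shown.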

Additional observations from a re-analysis of the deposited data

Results flagged for a closer look

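A difference between groups was found for 11 results, each by a test of the difference itself with edgeR. Of all genes, 22.1% were called in either direction for the change with injury, 6.89% for enrichment over background and 4.12% for enrichment at 7 dpa. The calls below of eIF2Bdelta, eIF4G1, eIF3g1, eIF3b and, at 7 dpa, eIF3m were lost in at least 1 fit without a library. That of eIF3b was kept in only 4 of 24 fits. The change with injury in inputs differed between libraries labelled dnmnatOE and wild type for eIF2Bdelta (0.79 on the log2 scale), eIF4EHP (−0.72) and eIF4G1 (−0.63). The enrichment of pulldown over input differed between libraries labelled dnmnatOE and background for eIF4EHP (1.38), eIF3e (−1.13), eIF3m (−0.96), eIF4A (−0.77), eIF3g1 (−0.69) and eIF3b (−0.61). In pulldowns alone eIF4EHP was not called between these genotypes. At 7 dpa the enrichment differed between libraries labelled dnmnatOE and wild type for eIF3h (−0.93) and eIF3m (−0.66). With library totals the falls of eIF4EHP and eIF4G1 in inputs and the higher enrichment of eIF4EHP were still called, and the other 8 were not.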

How the results depend on the processing

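Calls of single members rested most on the scaling. With library totals, chosen after seeing the data, 44 of 89 calls stood, 38 were lost and 7 changed sign, all of them rises with injury in inputs labelled dnmnatOE: eIF2beta (−0.037), eIF2Bepsilon (−0.11), eIF2D (−0.052), eIF2gamma (−0.051), eIF3a (−0.054), eIF3b (−0.12) and eIF3m (−0.089). Library totals moved the median of all genes by −0.75 in that comparison, and these values are the TMM values less that common shift. With upper-quartile scaling, also chosen after seeing the data, 67 stood and 22 were lost. All 89 stood with RLE scaling and with DESeq2, and 80 without the filter on low counts. With RLE and with DESeq2 the median of all genes with injury in inputs labelled dnmnatOE was −0.08, against −0.06 with TMM. These settings are thus close to TMM and test the scaling little.

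Counts of called members moved by more than 1.5 times as follows. The share of all genes called in either direction also varied over the comparisons. It ran from 2.48% to 60.9% with library totals, 2.47% to 53.8% with the upper quartile and 3.02% to 60.7% without the fold limit. With library totals the injury comparison in inputs gave 1 in background and 10 in libraries labelled dnmnatOE, the change with injury 5, dnmnatOE against wild type at 7 dpa 4, and wild type against background at 7 dpa 3. In pulldowns library totals gave 2 with injury in background, 2 in wild type, 3 for dnmnatOE against wild type uninjured, 1 for wild type against background at 7 dpa, and 1 for dnmnatOE against background at each time. With the upper quartile inputs gave 1, 2 and 13 with injury in background, wild type and dnmnatOE, 5 for the change, 2 for dnmnatOE against wild type at 7 dpa and 1 for wild type against background uninjured. Pulldowns gave 0 with injury in background, 2 for dnmnatOE against wild type uninjured and 1 for wild type against background at 7 dpa. Without the fold limit inputs gave 22 and 20 with injury in background and wild type, 17 for the change, 9 and 17 for dnmnatOE against wild type uninjured and at 7 dpa, and 5 and 8 for wild type against background. Pulldowns then gave 3 and 1 with injury in background and wild type, and 1 each for dnmnatOE against wild type and wild type against background at 7 dpa, and the fraction comparisons 1 for wild type enrichment, 11 for dnmnatOE enrichment and 4 for dnmnatOE against wild type. DESeq2 gave 2 for dnmnatOE against wild type in 7 dpa inputs, 1 with injury in wild type pulldowns, 1 for wild type against background pulldowns uninjured, 5 for dnmnatOE against background at 7 dpa, and 1, 10 and 5 in those fraction comparisons. RLE scaling gave 2 for dnmnatOE against wild type in 7 dpa inputs and 1 for wild type enrichment. Without the filter pulldowns gave 0 and 1 with injury in background and wild type, 2 for dnmnatOE against wild type and 3 against background uninjured, and the fraction comparison of dnmnatOE with wild type 1.

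Without 1 library, input counts ran from 1 to 4, 4 to 4 and 16 to 21 with injury in background, wild type and dnmnatOE, 2 to 5 for the change, 0 to 1 and 1 to 3 for dnmnatOE against wild type uninjured and at 7 dpa, and 1 to 2 and 1 to 1 for wild type against background. Pulldown counts ran from 0 to 2, 0 to 3 and 3 to 7 with injury, 0 to 0 for the change, 1 to 4 and 0 to 1 for dnmnatOE against wild type, 0 to 3 and 0 to 0 for wild type against background, and 2 to 4 and 1 to 2 for dnmnatOE against background. Fraction counts ran from 24 to 26 in background, 0 to 2 and 4 to 8 for wild type and dnmnatOE enrichment and 1 to 3 for dnmnatOE against wild type. Within a fraction, same-numbered libraries of different groups did not deviate together (r from −0.158 to 0.085 in inputs and −0.038 to 0.0419 in pulldowns). Whether the number pairs an input with a pulldown of the same group was not tested. The fit of both fractions treated them as unpaired. With the replicate number as a block 85 of 89 calls stood, and the count with injury in background pulldowns was 0. Pulldown depth limits what can be detected for members with few counts, although eIF2Balpha and eIF2Bgamma, with 100 and 162 counts over all pulldowns, were called lower in pulldown than input.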
